A study of Mus musculus with 24 samples.

Results

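Arntl, Clock, Npas2 and Arntl2 encode the activators of the mammalian circadian clock, and their transcripts were followed over a day in hearts that carry a mutant Clock allele. The 4 genes were taken as the array features whose only gene symbol in the platform annotation is one of these names. Each gene had 1 such feature, so that the members were 4 of 34351 features and 4 of the 22180 genes with values. No feature with several symbols named any of them.

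The 24 hearts came from male mice, 8 weeks old, all of the genotype Clock delta 19/delta 19, which carry the mutation on both alleles in every tissue. The mice were kept in 12 h of light and 12 h of darkness, and 4 hearts were taken at each of 6 times, every 4 h from ZT03 to ZT23, where ZT (zeitgeber time) is the number of hours since lights on. The first 3 times lie in the light phase, and ZT15, ZT19 and ZT23 in darkness. Hearts with intact Clock were not analysed here, and nothing below sets the mutant against an intact clock.

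In the intact clock, CLOCK pairs with ARNTL (also called BMAL1), and the pair binds E-box sequences and switches on the Period, Cryptochrome and Nr1d1 genes. The Period and Cryptochrome proteins then inhibit the pair, while the REV-ERB receptors (Nr1d1, Nr1d2) repress and the ROR receptors activate transcription of Arntl, so that Arntl messenger RNA itself cycles in normal heart and peaks near lights on. NPAS2 is a close relative of CLOCK that can take its place beside ARNTL, and ARNTL2 is a paralogue of ARNTL. The delta 19 allele yields a CLOCK protein that lacks an exon of its activation region; it still pairs with ARNTL and binds DNA but activates poorly.

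The second arm of this loop can be read in the Arntl promoter, which is why its sequence is shown. RefSeq (GRCm38.p6) places a start of Arntl on the plus strand within the window chr7:113207261-113207560, which runs from 250 bases before to 50 bases after that start. Capitals mark each match to AAAGTAGGT, the letters common to the known ROR and REV-ERB elements of Arntl, and the last capitals, CA, complete the overlapping ROR site TAGGTCA.
Arntl: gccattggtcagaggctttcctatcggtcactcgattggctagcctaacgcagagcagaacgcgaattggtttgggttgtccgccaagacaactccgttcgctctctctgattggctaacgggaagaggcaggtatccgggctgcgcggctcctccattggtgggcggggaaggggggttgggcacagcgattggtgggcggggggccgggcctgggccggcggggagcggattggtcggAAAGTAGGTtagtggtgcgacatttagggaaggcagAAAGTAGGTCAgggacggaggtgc
The first match starts at base -10 and the second at base 27 from the start site, both on the strand of the gene. On either strand, AAAGTAGGT was found in 0.183% of 32851 promoter windows of this length, and 3 genes held it more than once in a window: Arntl, Olfr1298 and S100a3. The letters were chosen from Arntl, so its place in that list follows from the choice. All 4 members matched the RefSeq table, with 7 windows between them. None of the 7 held CACGTG, the E-box (7.15% of all windows), CACGTT, a weaker E-box (4.68%), or TTATGNAA, the D-box (3.38%), on either strand. A match is a run of letters in a window and shows no binding.

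Every value below is a log2 difference (the log base is assumed) from the median of that gene over the 24 arrays. The authors centred the features in this way, which leaves no common level by which to compare the 4 genes, and a value of 0 is the middle heart, not absence. The spacing of the deposited numbers keeps 1 coarse trace of level. From it, 666 features (1.94%) were inferred to lie between 8 and 16 before centring. The others were inferred to have some or all of their values between 4 and 8. This inference was not checked against uncentred values. Clock lay in the upper class and Arntl, Npas2 and Arntl2 in the lower. The labelled tissue, myocardium, was checked on the same trace: 9 of 10 cardiomyocyte markers lay in the upper class, among them Myh6, Tnnt2 and Ryr2. The exception, Myl2, lay in the lower class. Fewer cells of a type and less RNA per cell cannot be told apart in whole-tissue arrays. The number of arrays limits the precision, and the SD within time points, as moderated in the limma fit, had a median of 0.085 over all genes.

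One heart, ZT19 replicate 2, stood apart for Arntl and Clock, and the results for the 4 genes are given with and without it. Its Arntl and Clock values were the lowest of all 24 hearts, while its Npas2 value of -0.31 and Arntl2 value of 0.029 lay within the range of the other 23. Leaving out the heart that is lowest for Arntl and Clock narrows the spread of these genes. Calls gained without it describe the other 23 hearts and are no independent support. No other heart lay outside the rest for more than 1 member. Over all genes, 8.31% had this heart outside the other 23, and the other hearts ranged from 6.16% to 16.2%. Its fibroblast markers averaged -0.22 against -0.094 to 0.17 in the other hearts, and its atrial markers -0.3325 against -0.3293 to 0.56. Its cardiomyocyte markers, at -0.0018, lay within the range of the other hearts, -0.10 to 0.14. Of the 15 measured repressors, receptors and output regulators of the clock, 10 lay outside the other 23 hearts in this one, 8 above and 2 below. Above lay Per3 at 0.93 (highest other heart 0.23), Nr1d2 at 0.67 (0.23), Dbp at 0.62 (0.29), Cry2 at 0.45 (0.25), Cry1 at 0.36 (0.32), Bhlhe41 at 0.30 (0.18), Hlf at 0.16 (0.15) and Rora at 0.12 (0.079). Nr1d1, the paralogue of Nr1d2, lay below at -0.62 (lowest other heart -0.40), as did Rorb at -0.24 (-0.22). The part of these markers in its low Arntl and Clock was not tested.

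Arntl had the widest profile of the 4 genes. At ZT03 its values in replicates 1 to 4 were 0.13, 0.35, 0.027 and 0.45, and at ZT07 they were 0.069, -0.17, 0.053 and -0.12. At ZT11 they were -0.38, -0.35, -0.42 and -0.21, so all 4 hearts of late light lay below every heart of ZT03 and ZT07. In the dark phase the values were -0.13, 0.082, -0.027 and -0.25 at ZT15. They were -0.33, -0.83, -0.028 and 0.24 at ZT19. At ZT23 they came to 0.30, 0.25, 0.26 and 0.074, all above 0 and all above the ZT11 hearts. The ZT19 hearts spanned more than those of any other time, from the lowest value of the day to one within the range of ZT23.

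The light-phase means of Arntl were 0.24 ± 0.19 (SD, n = 4) at ZT03, -0.04 ± 0.12 at ZT07 and -0.34 ± 0.09 at ZT11. Its dark-phase means were -0.08 ± 0.14 at ZT15, -0.24 ± 0.46 at ZT19 and 0.22 ± 0.10 at ZT23. From ZT03 to ZT11, Arntl fell by 0.58 ± 0.15 (SE; limma contrast, adjusted p = 0.042), and the groups did not overlap. Of all genes, 2.29% passed this contrast and 8.09% had groups that did not overlap; of the 4 members, Arntl alone passed it with all hearts. In the other direction, from ZT11 to ZT23, the difference was 0.56 ± 0.15 (SE) with an adjusted p of 0.27 and no overlap, which 3.32% of genes showed. Neighbours in the order of the means, ZT03 and ZT23 at the top and ZT19 and ZT11 at the bottom, differed by -0.019 and 0.10, with limma adjusted p of 0.98 and 0.90. Without ZT19 replicate 2 the ZT19 mean of Arntl was -0.041, the fall from ZT03 to ZT11 had an SE of 0.11 (adjusted p = 0.0070), and 2.24% of genes passed. The call with all hearts was close to the threshold: it was lost in 11 of 24 omissions of 1 heart. These were any heart of ZT03, replicates 1, 2 and 3 of ZT11, ZT07 replicate 4, ZT15 replicate 1, and replicates 2 and 3 of ZT23. Over the 24 omissions the difference stayed between -0.65 and -0.51, with adjusted p (limma) from 0.0070 to 0.12. It was also lost with quantile normalization (limma adjusted p = 0.060), with features tested singly (0.056) and with a replicate block (0.059).

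Clock, the gene that carries the mutation, had a shallower profile with its lowest hearts also at ZT11. At ZT03 its values were 0.085, 0.12, 0.062 and 0.0043, and at ZT07 they were -0.11, 0.13, -0.0084 and 0.17. The ZT11 values of -0.30, -0.19, -0.24 and -0.18 were all below every heart of the other light-phase times. At ZT15 the hearts were at -0.12, -0.029, 0.0041 and 0.029. The ZT19 hearts were at 0.014, -0.60, -0.011 and -0.060. At ZT23 they were at -0.0041, 0.11, 0.13 and 0.11, again all above ZT11. Apart from replicate 2 of ZT19, no heart at another time was as low as the highest of the ZT11 hearts. The position of the Clock probes relative to the exon lost in delta 19 is not known here, and these values do not check the genotype.

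The means of Clock ran from 0.09 ± 0.06 (SD, n = 4) at ZT23 and 0.07 ± 0.05 at ZT03 through 0.05 ± 0.13 at ZT07, -0.03 ± 0.06 at ZT15 and -0.16 ± 0.29 at ZT19 to -0.23 ± 0.05 at ZT11. The difference from ZT03 to ZT11 was -0.30 ± 0.09 (SE; limma adjusted p = 0.10), without overlap, as in 8.09% of genes. Between ZT07 and ZT11 it was -0.27 ± 0.09 (adjusted p = 0.21), also without overlap, as in 5.89% of genes. Both steps passed once ZT19 replicate 2 was left out, when the SE dropped to 0.05. The limma adjusted p was 0.0055 from ZT03 and 0.036 from ZT07, in contrasts that 2.24% and 0.257% of genes passed. With any other heart left out neither passed. The SD that the fit used for Clock was 0.131 with that heart and 0.072 without it. The differences themselves were the same in both fits, because ZT03, ZT07 and ZT11 hold the same hearts.

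Npas2 had its lowest mean at ZT19 and not at ZT11. With all hearts, the ZT19 means of Arntl and Clock were low as well, at -0.24 and -0.16. Its values were 0.11, 0.24, 0.25 and 0.083 at ZT03, and -0.030, -0.26, 0.0026 and 0.12 at ZT07. At ZT11, when Arntl and Clock were low, the Npas2 hearts lay close to the middle at 0.051, -0.0026, 0.026 and 0.057. In early darkness, at ZT15, they were at -0.069, -0.19, -0.0061 and -0.38. The ZT19 hearts were at -0.22, -0.31, -0.19 and -0.27 and so all below 0. At ZT23 the values of 0.25, -0.21, 0.0049 and 0.14 spread to both sides of 0. Every ZT19 heart lay below every ZT03 and every ZT11 heart, replicate 2 among them.

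The mean of Npas2 was highest at ZT03, 0.17 ± 0.09 (SD, n = 4), and lowest at ZT19, -0.25 ± 0.05. Between these lay 0.05 ± 0.20 at ZT23, 0.03 ± 0.03 at ZT11, -0.04 ± 0.16 at ZT07 and -0.16 ± 0.16 at ZT15. The widest difference, -0.42 ± 0.09 (SE) from ZT03 to ZT19, had an unadjusted p of 0.00012 and an adjusted p of 0.14 in limma, and 4.51% of genes had no overlap between these times. Between ZT03 and ZT15 it was -0.33 ± 0.09 (adjusted p = 0.072), again without overlap, as in 8.03% of genes. The ZT11 and ZT19 hearts, which differed by -0.28 (adjusted p = 0.28), were also apart, as in 4.30% of genes. None of these 3 contrasts passed without ZT19 replicate 2 either, with adjusted p of 0.30, 0.080 and 0.39.

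Arntl2 varied least. Its hearts were at 0.042, 0.14, 0.044 and 0.14 at ZT03 and at -0.0025, 0.25, -0.067 and -0.014 at ZT07. At ZT11 they were at 0.12, -0.069, 0.11 and 0.12, so 3 of 4 lay above 0 when all Arntl hearts lay below it. The dark-phase hearts were at -0.090, -0.25, -0.020 and -0.070 at ZT15, all below 0. At ZT19 they were at 0.0025, 0.029, -0.21 and -0.029, and at ZT23 at -0.055, 0.041, 0.17 and -0.23. The means ran from 0.09 ± 0.06 (SD, n = 4) at ZT03 to -0.11 ± 0.10 at ZT15, with 0.07 ± 0.09 at ZT11, 0.04 ± 0.14 at ZT07, -0.02 ± 0.17 at ZT23 and -0.05 ± 0.11 at ZT19. From ZT03 to ZT15 the difference was -0.20 ± 0.08 (SE; limma adjusted p = 0.26), with no overlap, as in 8.03% of genes.

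**Figure D1:**
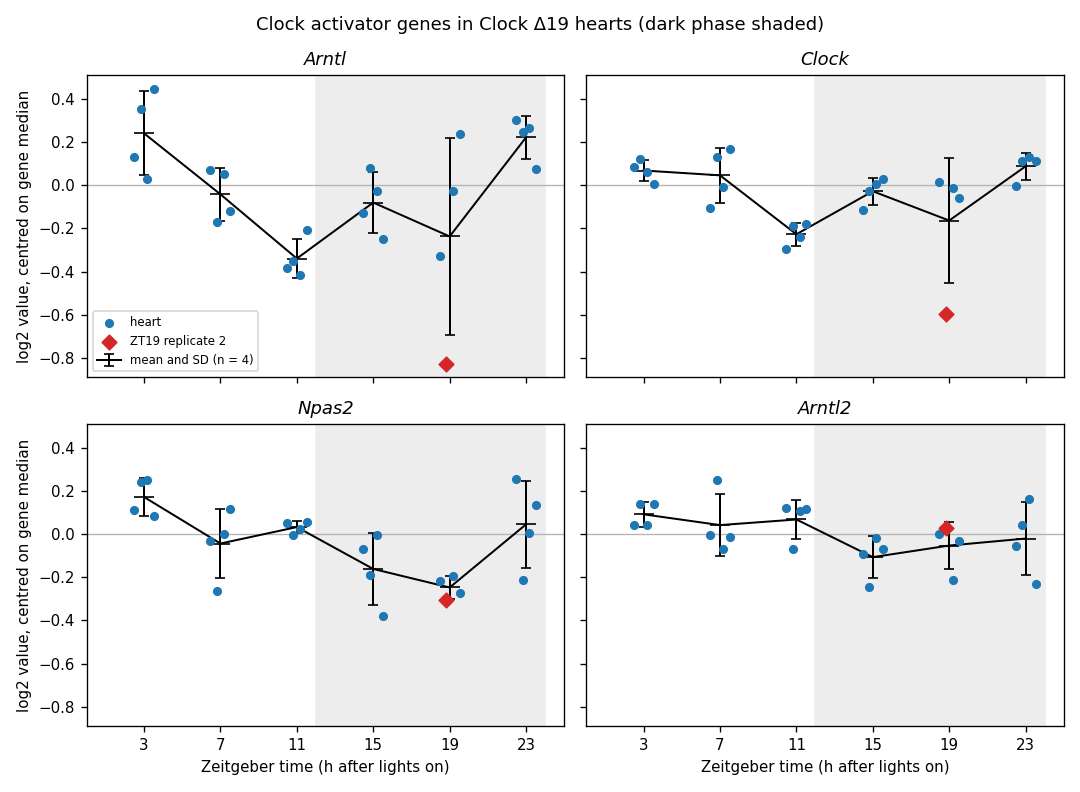
Centred log2 value (vertical axis) against zeitgeber time in hours (horizontal axis) for Arntl, Clock, Npas2 and Arntl2; points are hearts, black bars the mean and SD of 4 hearts, the red diamond ZT19 replicate 2, and shading the dark phase. Arntl and Clock have their lowest group of hearts at ZT11, apart from the red diamond at -0.83 and -0.60, while Npas2 is lowest at ZT19 with a mean of -0.25.

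Over the 60 contrasts of 2 times (15 for each gene), 1 passed with all hearts and 3 without ZT19 replicate 2, all of them between ZT11 and an earlier light-phase time. Of all genes, 2.29% passed ZT03 against ZT11 with all hearts. Without that heart 2.24% passed it, and 0.257% passed ZT07 against ZT11. With all hearts, groups did not overlap in 15 of the 60, at pairs of times where this held for 3.25% to 8.09% of all genes. Besides those given above, these were ZT07 against ZT11 and against ZT23 for Arntl (the latter in 6.11% of genes), ZT11 against ZT15 for Clock and Npas2 (3.25%), ZT11 against ZT23 for Clock, ZT03 against ZT11 for Npas2 and ZT03 against ZT19 for Arntl2. The contrasts of a gene share groups of hearts, so the 15 are not separate results.

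Tested for any difference among the 6 times, 0 of the 4 genes passed after adjustment over all 22180 genes with all hearts, where 1.48% of genes did (limma F test). The adjusted p was 0.078 for Npas2, 0.11 for Arntl, 0.19 for Clock and 0.57 for Arntl2. At an unadjusted p under 0.05, 3 of 4 passed against 13.4% of all genes, at 0.0017, 0.0036 and 0.011 for Npas2, Arntl and Clock. Permuting the time labels of a single gene gave 0.0044, 0.0074, 0.015 and, for Arntl2, 0.18 (permutation test). The ranges of the time means were 0.58 for Arntl, 0.42 for Npas2, 0.31 for Clock and 0.20 for Arntl2.

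When ZT19 replicate 2 was left out, Arntl and Clock passed the same test, with adjusted p of 0.030 and 0.018 against 1.46% of all genes. That heart holds the lowest value of both genes, so its omission narrows their spread and favours these calls. The ranges of Arntl and Clock were then 0.58 and 0.31 as before, set by ZT11 below and by ZT03 or ZT23 above, and the ZT19 mean of Clock was -0.019. Npas2, at its lowest of ZT19 in that heart but within the range of the other 23, had an adjusted p of 0.14, and Arntl2 of 0.55. The omission of each of the other 23 hearts was tried as well. Arntl also passed without ZT19 replicate 4, its highest heart of that time (adjusted p = 0.030), Npas2 passed without ZT23 replicate 2, its lowest of that time (0.034), and Clock passed with no other heart left out. Over the 24 omissions the adjusted p ranged from 0.030 to 0.22 for Arntl, 0.018 to 0.31 for Clock, 0.034 to 0.17 for Npas2 and 0.42 to 0.73 for Arntl2.

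**Figure D2:**
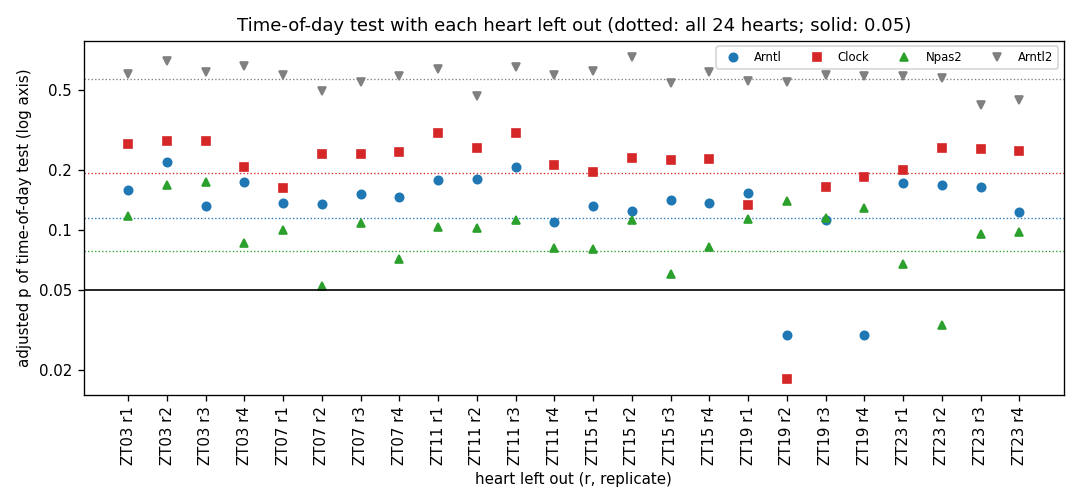
Adjusted p of the limma time-of-day test (vertical log axis) when 1 heart is omitted, for each heart (horizontal axis); symbols are the 4 genes, dotted lines their values with all hearts, and the solid line the threshold of 0.05. Only 4 points lie under the line: Arntl and Clock without ZT19 replicate 2, Arntl without ZT19 replicate 4 and Npas2 without ZT23 replicate 2.

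As a single daily wave, the 4 genes peaked between lights on and the middle of the light phase. Arntl peaked at ZT1.37 ± 0.99 h (SE) with an amplitude, the distance from mean to peak, of 0.26 ± 0.07, a peak 1.43-fold over the trough. Clock peaked at ZT2.05 ± 1.32 h with an amplitude of 0.12 ± 0.04 (1.19-fold). Npas2 followed at ZT4.37 ± 1.01 h with 0.16 ± 0.04 (1.24-fold) and Arntl2 at ZT5.55 ± 1.42 h with 0.09 ± 0.03 (1.13-fold). Against a median amplitude of 0.032 over all genes, these were larger than those of 99.9%, 96.7%, 98.8% and 89.2% of genes. A fitted amplitude is never negative and grows with the spread between hearts. The SD within time points, as moderated in the limma fit, was 0.210, 0.131, 0.126 and 0.111 for these genes in the same order. Its median over all genes was 0.085. The 24 h terms were tested in limma: adjusted p was 0.20 for Arntl, 0.22 for Npas2, 0.40 for Clock and 0.44 for Arntl2, so 0 of 4 passed, where 0.0631% of genes did. All 4 had an unadjusted p under 0.05, against 10.8% of genes. With 1 cycle sampled, the wave describes these hearts and does not show that it repeats.

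Leaving out ZT19 replicate 2 moved the peaks of Arntl and Clock earlier, to ZT0.294 ± 0.71 h (SE) and ZT0.459 ± 0.89 h. The fits with and without that heart share all other hearts, so these errors do not measure the shift. Arntl then had an unadjusted p of 4.9e-05 and an adjusted p of 0.067, and Clock an adjusted p of 0.13. The peaks of Npas2 and Arntl2 lay at ZT4.13 and ZT5.70. Again 0 of the 4 passed this limma test, where 0.0496% of genes did. A 12 h component beside the 24 h wave passed in none of the members, and in 0.00451% of all genes. Npas2 had the smallest limma p for it, with an amplitude of 0.11 (unadjusted p = 0.017, adjusted p = 0.34). It was the 1 member with an unadjusted p under 0.05, against 10.5% of genes.

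Averaged over the phases, Npas2 was 0.17 ± 0.05 (SE) and Arntl2 0.13 ± 0.05 higher in light than in darkness, with unadjusted p of 0.0027 and 0.011 and limma adjusted p of 0.15 and 0.29. Arntl differed by -0.02 ± 0.09 and Clock by -0.0031 ± 0.05, with adjusted p of 0.97 and 0.99. For these genes the phase means set the high ZT03 hearts and the low ZT11 hearts in the same average. None of the 4 passed this contrast, where 0.379% of genes did, and 2 of 4 were higher in light at an unadjusted p under 0.05 against 6.30% of genes. Leaving out ZT19 replicate 2 gave differences of 0.17, 0.14, -0.08 and -0.05 for Npas2, Arntl2, Arntl and Clock.

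Whether the genes differ from each other in their course over the day was asked on their difference within each heart, where a level has no meaning but a change over time does. At ZT11, Arntl minus Npas2 averaged -0.37, with all 4 hearts between -0.44 and -0.27. Outside ZT11, only ZT19 replicate 2, at -0.52, was lower than -0.24. The other differences at ZT11 were -0.41 for Arntl minus Arntl2, -0.26 for Clock minus Npas2 and -0.30 for Clock minus Arntl2, against -0.11 for Arntl minus Clock and -0.035 for Npas2 minus Arntl2. Each of the 4 differences that set Arntl or Clock against Npas2 or Arntl2 had its lowest time mean at ZT11, as did Arntl minus Clock. These means alone do not show a change over time, which is tested next.

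With all hearts, none of the 6 differences passed a permutation test over the time labels after adjustment over the 6 pairs. The unadjusted p was 0.034 for Arntl minus Arntl2, 0.063 for Clock minus Arntl2, 0.076 for Clock minus Npas2 and 0.079 for Arntl minus Npas2, each 0.12 after adjustment. In ZT19 replicate 2, Arntl and Clock were at their lowest of all hearts, Npas2 at its lowest of ZT19 (-0.31) and Arntl2 at 0.029. Without that heart, these 4 differences passed: adjusted p was 0.018 against Arntl2 and 0.024 against Npas2, for Arntl and Clock alike (permutation test). The ranges of their time means were then 0.65 and 0.40 against Arntl2, and 0.56 and 0.47 against Npas2. With any other single heart left out, none of these 4 passed. These calls thus rest on leaving out the heart with the lowest Arntl and Clock. Arntl minus Clock did not pass with or without that heart (adjusted p = 0.27 and 0.32, range 0.28), nor did Npas2 minus Arntl2 (0.46 and 0.68, range 0.27 and 0.23), which leaves room for differences of that size.

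**Figure D3:**
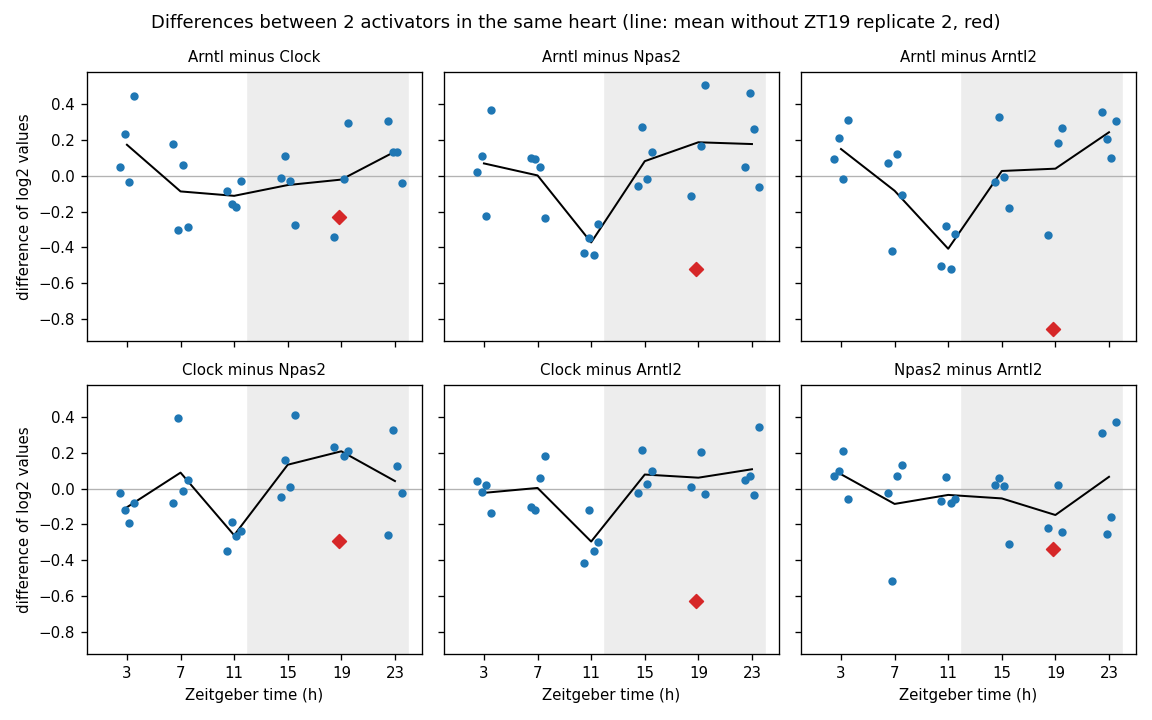
Difference of the log2 values of 2 activators in the same heart (vertical axis) against zeitgeber time in hours (horizontal axis) for the 6 pairs; points are hearts, the line the mean without ZT19 replicate 2 (red diamond), and shading the dark phase. The 4 panels that set Arntl or Clock against Npas2 or Arntl2 dip at ZT11 to between -0.41 and -0.26, and the panels Arntl minus Clock and Npas2 minus Arntl2 stand at -0.11 and -0.035 there.

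Across the 24 hearts, Arntl and Clock went together (Pearson r = 0.72, permutation p = 0.00016, adjusted over 6 pairs 0.00096; Spearman rho = 0.51, p = 0.012, adjusted 0.073). Without the 2 hearts farthest from the median of Arntl, ZT03 replicate 4 and ZT19 replicate 2, r was 0.58. Without ZT19 replicate 2 alone it was 0.55 (adjusted permutation p = 0.042) with a rho of 0.44 (adjusted p = 0.22). As deviations from the time means, which leave the spread among hearts of 1 time, r was 0.48 (permutation p = 0.38) with all hearts. Without ZT19 replicate 2 it was -0.37 (permutation p = 0.068). The sign of r thus turned on 1 heart, and a relation within times was neither shown nor excluded. The other 5 pairs had r from -0.016 (Clock and Arntl2) to 0.39 (Arntl and Npas2, adjusted permutation p = 0.17), and none passed.

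The genes whose values over the 24 hearts were most like or most opposite to each member were named from 18743 genes with a proper symbol, by Pearson r, as a description. Most like Arntl were Mfsd14a (0.76), Casq2 (0.73), Ttc37 (0.73), Rab21 (0.72) and Rhoj (0.72), with Clock 6th. Without ZT19 replicate 2, Mfsd14a stood at 0.78 and Casq2, which encodes the calcium-binding calsequestrin of the cardiac sarcoplasmic reticulum, at 0.59; Clock ranked 267th. Casq2 was itself at its lowest in that heart, -0.29 against -0.23 in the next.

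Most opposite to Arntl was Tcap, which encodes telethonin, a cap protein of titin at the sarcomere's Z-disc. Its r was -0.81 with all hearts and -0.87 without ZT19 replicate 2, the lowest of all 18743 genes in both. Tcap hearts were at 0.51, 0.14, 0.52 and 0.36 at ZT11, when Arntl was low, and at -0.22, -0.17, -0.16 and -0.58 at ZT03, when Arntl was high. Even at ZT19 the heart with the highest Arntl, replicate 4 at 0.24, had the lowest Tcap of that time, -0.47. Tomm7 (-0.76) and Glul (-0.75), the gene of glutamine synthetase, came next. Both were at their highest of all hearts in ZT19 replicate 2, at 0.57 and 0.70 against at most 0.28 and 0.21, and stood at -0.64 and -0.59 without it.

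**Figure D4:**
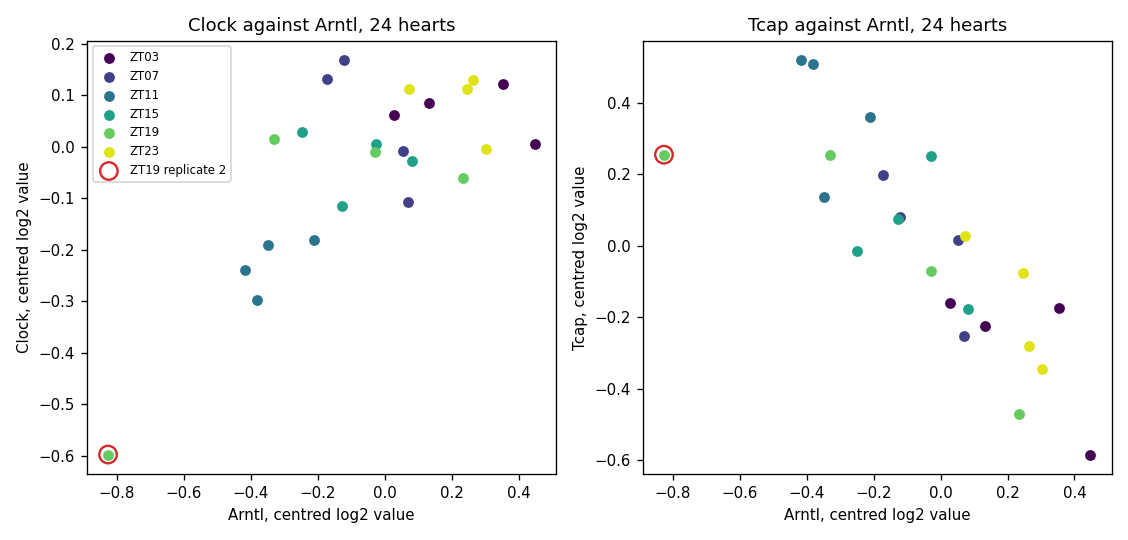
Centred log2 value of Clock (left) and of Tcap (right) against that of Arntl in the same heart; each point is 1 of 24 hearts, coloured by time, and the red ring marks ZT19 replicate 2. Clock follows Arntl with r = 0.72, which is 0.55 without the ringed heart, and Tcap runs opposite with r = -0.81, which is -0.87 without it.

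Most like Clock were Casq2 (0.79, or 0.65 without ZT19 replicate 2), Gmps (0.78, or 0.82), Ppp2r5a (0.73), Nlk (0.72) and Arntl. Gmps, which encodes the GMP synthetase of purine synthesis, ranked first of all genes without that heart. Most opposite were Idh2 (-0.85, or -0.71 without it), the mitochondrial isocitrate dehydrogenase, Aqp1 (-0.82, or -0.78), a water channel, and Glul (-0.81, or -0.59). Npas2 was most like Cd226 (0.78), Lima1 (0.76), Zfp382 (0.72), Zbtb22 (0.69) and Zfp316 (0.66), and most opposite to Tnfsf8 (-0.74), Olfr1126 (-0.70) and Rbm5 (-0.69). Arntl2 was most like Rffl (0.75), Ttc28, Tpst1, Procr (each 0.68) and Pphln1 (0.66), and most opposite to Olfr1111 (-0.72), Acsm4 (-0.70) and Olfr123 (-0.69). Some of these opposite genes varied little. Outside ZT19 replicate 2, Olfr1111 lay between -0.034 and 0.040, Olfr1126 between -0.053 and 0.097 and Acsm4 between -0.081 and 0.12. Among the 4 sets of most like genes, Casq2 was the 1 name in more than a single set, in those of Arntl and Clock; Glul was among the most opposite of both. When ZT19 replicate 2 was left out, Casq2 ranked 122nd for Arntl and 73rd for Clock, and the 5 genes most like Arntl and the 5 most like Clock shared no name. Krtap10-10 was then among the most opposite of both, at -0.74 for Arntl and -0.77 for Clock. The points of each pair share the array, and no p is given because the genes were picked for their r.

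The rest of the loop was read from fixed gene lists, in each of which calls were made over all genes. Of the repressor arm, 5 of 6 genes were measured and 0 passed any of the 3 limma tests (time of day, 24 h, light against dark), although 2 had an unadjusted p under 0.05 for the 24 h terms, as 10.8% of all genes did. Its smallest p belonged to Per1 (amplitude 0.31, peak ZT9.65, adjusted p = 0.22) and Cry1 (0.16, ZT20.6, 0.28), both repressors of the CLOCK and ARNTL pair. Of the REV-ERB and ROR genes, whose proteins act on the promoter shown above, 4 of 5 were measured and 0 passed, with 2 at an unadjusted p under 0.05 against the same 10.8%. Rorb (0.10, ZT4.27, 0.32) and Nr1d1 (0.15, ZT10.1, 0.43) had the smallest p. Leaving out ZT19 replicate 2, again 0 passed in either list, and the unadjusted counts were 3 repressors and 2 receptors, against 10.9% of all genes. Cry2 then joined the repressors (amplitude 0.10, limma adjusted p = 0.33). Among the receptors Nr1d2 (amplitude 0.14, limma adjusted p = 0.39) had a smaller p than Nr1d1 (0.12, limma adjusted p = 0.46), and the pair under 0.05 unadjusted was Nr1d2 and Rorb. Median amplitudes were 0.114 for the repressors and 0.104 for the receptors, against 0.032 over all genes.

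Output regulators, all 6 measured, had 1 gene that passed: Nfil3, a repressor at D-boxes, with an adjusted p of 0.018 over time and a light minus dark difference of -0.24 ± 0.05 (SE; limma adjusted p = 0.022). Lower values in light passed in 0.135% of all genes. Partners and modifiers of CLOCK and ARNTL were measured for 16 of 21 listed symbols. Of these 1 passed, Kat2b, an acetyltransferase reported as a co-activator of CLOCK: 0.17 ± 0.03 (SE) higher in light (limma adjusted p = 0.018, a direction that 0.243% of genes passed), and 0.042 over time. Other genes of the same protein family, with a basic helix-loop-helix and a PAS domain, were all measured (15 of 15), and 1 passed. This was Hif1a, the oxygen-regulated factor that also pairs with an ARNT-type partner, with an amplitude of 0.10 and a peak at ZT1.28. Its limma adjusted p was 0.032 for the 24 h terms, which 0.0631% of all genes passed, and 0.019 over time, which 1.48% passed. The peak of Arntl was at ZT1.37, and a link between these genes was not tested. Nfil3, Kat2b and Hif1a passed the same tests without ZT19 replicate 2. The median amplitudes of these 3 lists were 0.058, 0.035 and 0.027.

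Cell type markers were set beside these profiles by their time means, with no test of time. The fibroblast markers (6 of 6 measured) averaged 0.092 ± 0.04 (SD, n = 4) at ZT03, when Npas2 was highest, and -0.071 ± 0.11 at ZT19, when it was lowest. With ZT19 replicate 2 left out, the ZT19 mean was -0.022 and the lowest was that of ZT15, -0.041. Skeletal muscle markers (6 of 6) averaged -0.097 ± 0.09 at ZT03 and 0.10 ± 0.07 at ZT23. Atrial markers (5 of 5) varied widely between hearts of a time, with means of 0.23 ± 0.32 at ZT03 and -0.17 ± 0.17 at ZT19, or -0.11 without replicate 2. Cardiomyocyte markers (10 of 10) stayed between -0.031 and 0.031 in the time means, and leukocyte markers (6 of 6) between -0.026 and 0.030. No feature of the 6 red blood cell markers was found under those symbols. The part of these values in the profiles of the 4 activators was not tested.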

How the data were processed

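RNA of 24 snap-frozen hearts was measured on arrays of 1 colour by an Affymetrix protocol, from 500 ng of TRIzol-extracted RNA labelled with biotin, per the labels' protocols. The authors deposited 1 value per feature and array on a log scale, taken as log2; how they were summarized and normalized, and the log base, is not given in the sources used here. With a natural log, sizes would be 1.44 times larger and p-values the same. Of 34351 features, 23521 had 1 gene symbol in the platform annotation, 1814 several and 9016 none; features of a gene were averaged, leaving 22180 genes, without a filter, since centred values hold no level.

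limma 3.58.1 (R 4.3.3) fitted all genes: an F test over 6 time-point means, contrasts of times and of light against dark, and cosine and sine terms of 24 h and 12 h, with Benjamini-Hochberg adjustment over all genes at 0.05. limma p-values in the text are moderated and two-sided. Single-gene, difference and correlation tests drew 100000 permutations (two-sided; numpy 2.4.6). The labels call the 4 replicates of a time biological; whether tissue was pooled is not stated. Deviations of same-numbered hearts had a median correlation close to that of other hearts, so no pairing was used. The fits were tested on simulated data.

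The members and gene lists were chosen with earlier results of these data known. Named genes are the 4 members, the 5 most like and 3 most opposite to each by Pearson r, and list genes that passed a test or, failing that, had the 2 smallest p-values of the 24 h test. Alternatives were each heart left out, quantile normalization, array weights, features tested singly, a replicate block, 12 h terms and permutation tests. Promoter windows are RefSeq's (GRCm38.p6).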

Additional observations from a re-analysis of the deposited data

Results flagged for a closer look

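In 24 groups of 4 hearts (4 genes at 6 times), 3 groups held a heart whose gap to its nearest neighbour was large against the range of the group, by Dixon's criterion; chance gives about 1 in 20. For Clock at ZT19, replicate 2 was at -0.60, and the gap was 0.88 of the range. For Clock at ZT23, replicate 1 was at -0.0041 (0.87 of the range), with the other hearts at 0.11 to 0.13. For Arntl2 at ZT11, replicate 2 was at -0.069 (0.92 of the range), with the others at 0.11 to 0.12. The Arntl value of -0.83 in ZT19 replicate 2 did not meet the criterion, because the other 3 hearts of that time were themselves spread from -0.33 to 0.24.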

How the results depend on the processing

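Centred values allow no filter on level, and signal over background is unknown. Counts of genes depended on the fit. The 24 h test passed 14 genes, and 33 with quantile normalization, 59 with array weights, 3 with features tested singly, 74 with 12 h terms beside it and 3 to 45 with a heart left out. The light-dark contrast passed 84 genes, 144 with quantile normalization and 51 to 183 with a heart left out. The time-of-day test passed 329 genes, 218 with a replicate block and 28 to 467 with a heart left out. Same-numbered hearts of different times had a median correlation of deviations of -0.00075, and 8 of 60 pairs were over 0.1. For different numbers these were -0.00096 and 18 of 180. These medians show no pairing by number, and shared handling of same-numbered hearts was not tested. Under the replicate block the limma adjusted p over time was 0.16 for Arntl, 0.24 for Clock, 0.072 for Npas2 and 0.64 for Arntl2. The block changed no time-of-day, 24 h or light-dark call of a member.

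With a heart left out, the range of time means stayed at 0.55 to 0.65 for Arntl, 0.29 to 0.35 for Clock and 0.39 to 0.45 for Npas2, and the calls gained are given in the report. In alternatives chosen after seeing the data, the fall of Arntl from ZT03 to ZT11, -0.58, lost its call with features tested singly (-0.58, adjusted p = 0.056), the replicate block (-0.58, 0.059) and quantile normalization (-0.53, 0.060), and ranged from -0.65 to -0.51 with a heart left out. For Clock the ranges were -0.32 to -0.27 from ZT03 to ZT11 and -0.32 to -0.23 from ZT07 to ZT11. Light minus dark changed sign for Arntl (-0.081 to 0.037) and Clock (-0.051 to 0.017; 0.00095 with array weights), values that passed under no setting. The amplitude of Arntl2, 0.085, had a permutation p of 0.055. Without ZT19 replicate 2, ZT19 minus ZT07 and ZT19 minus ZT15 turned to 0.0012 and 0.039 for Arntl, and ZT19 minus ZT15 to 0.0088 for Clock.

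Differences between members, with a heart left out, ranged from 0.61 to 0.70 for Arntl minus Arntl2, 0.45 to 0.63 for Arntl minus Npas2, 0.35 to 0.47 for Clock minus Npas2 and 0.36 to 0.46 for Clock minus Arntl2. Correlations ranged from -0.10 to 0.041 for Arntl with Arntl2 and from -0.12 to 0.064 for Clock with Arntl2. As deviations from the time means, r was 0.48 for Arntl with Clock, -0.0030 for Clock with Npas2 and -0.39 for Npas2 with Arntl2. Over the 23 hearts without ZT19 replicate 2, chosen after seeing the data, it was -0.37, -0.21 and -0.37, and 0.18 for Clock with Arntl2. The cause of these changes was not tested.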
